A study of Homo sapiens with 16 samples.

Results

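The genes described here are 52 interferon-stimulated genes, named from general knowledge of the antiviral response and looked up by their gene symbol on a whole-genome expression array. Of these, 51 had a probe set annotated with that symbol alone, out of 19775 genes that had one, and STAT2 is not analysed here. Where a gene had several such probe sets, as 26 of the members did, the one with the highest mean over all arrays stood for it. All 51 passed the filter on dim signal, which 14038 genes passed in all.

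The study treated acute myeloid leukaemia (AML) cell lines with azacitidine (AZA), an inhibitor of DNA methyltransferases that acts once incorporated into nucleic acid, and its stated aim concerned the control of DNA methylation. The 8 groups were AZA and vehicle (DMSO) cultures of AML-193, a monocytic line, of HNT-34, of KG1a, an immature line, and of HL60, a promyelocytic line, with 2 arrays per group. AZA was given at 0.5 µM on each of 3 days, and RNA was taken from frozen pellets after 4 more days without drug. All cultures, vehicle included, grew in a light-isotope SILAC medium, and each line is a single established model. Whether both arrays of a group stem from independent cultures is not given in the labels. The p-values therefore describe the spread between these samples alone, which may be technical.

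Type I interferons bind the receptor pair IFNAR1 and IFNAR2, whose kinases JAK1 and TYK2 phosphorylate STAT2. STAT2 and IRF9 are parts of the complex ISGF3, which binds interferon-stimulated response elements in the promoters of the genes described here. Their products sense foreign RNA and DNA, conjugate the ubiquitin-like protein ISG15, block virus entry and restrict growth, and many of them are also expressed at some level without added interferon.

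To show where such an element lies, promoter sequence is printed for 7 members on which the results below turn, those with large changes after AZA or large differences between lines. The sequences are from RefSeq (GRCh38.p14), on the strand of the gene, 5′ to 3′, and hold only bases before the annotated start. Capitals mark matches to GAAA followed by 2 bases of any kind and a further GAAA, or to its reverse complement, TTTC with 2 bases and a further TTTC, searched on both strands with overlapping matches allowed. In ISG15 the 2 matches overlap.
ISG15 (chr1:1013354-1013429, plus strand): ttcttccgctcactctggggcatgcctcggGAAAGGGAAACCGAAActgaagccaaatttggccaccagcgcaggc
IFIT1 (chr10:89392477-89392559, plus strand): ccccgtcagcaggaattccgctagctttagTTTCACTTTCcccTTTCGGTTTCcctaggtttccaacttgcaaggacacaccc
IFI27 (chr14:94110598-94110680, plus strand): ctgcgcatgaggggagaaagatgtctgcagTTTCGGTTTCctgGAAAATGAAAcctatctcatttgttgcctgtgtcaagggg
IFI6 (chr1:27672246-27672378, minus strand): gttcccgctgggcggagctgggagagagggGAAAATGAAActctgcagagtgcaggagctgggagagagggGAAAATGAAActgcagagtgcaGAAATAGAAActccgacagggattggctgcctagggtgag
LGALS3BP (chr17:78979942-78980011, minus strand): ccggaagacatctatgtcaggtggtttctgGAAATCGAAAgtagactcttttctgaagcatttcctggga
RSAD2 (chr2:6877602-6877671, plus strand): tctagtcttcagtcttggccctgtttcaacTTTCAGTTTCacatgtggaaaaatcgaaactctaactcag
IFI44L (chr1:78620254-78620414, plus strand): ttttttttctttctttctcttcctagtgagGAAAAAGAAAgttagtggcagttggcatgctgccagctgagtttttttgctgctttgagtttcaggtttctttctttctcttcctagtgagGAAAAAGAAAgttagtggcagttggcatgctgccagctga

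Of the 52 members, 41 had a RefSeq window from 250 bases before to 50 bases after a start, and 29 of these (70.7%) held the motif in at least 1 window. The same motif was in 3.57% of all 35116 windows and in 4.38% of the 27305 genes that have one. IFI6, IFIT5, HERC5 and IFIH1 each held 3 matches in a window. Among the 12 members without a match were XAF1, CMPK2 and IRF9, which are described below. A match describes letters and is not a measured binding site.

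The deposited signals are on a log2 scale, and all levels and differences below are log2 values unless given as a fold. Every array had the same distribution of signals by construction, with a median of 6.73, so changes are relative to the whole array. The transcript of DNMT1, the enzyme that AZA traps, was lower in AZA-treated HNT-34 cells by -0.46 (adjusted p = 0.00246), and its change in the other lines ranged from -0.21 to -0.13 without passing the test. RNA integrity was read from the control probe sets of ACTB and GAPDH as 3′ minus 5′ signal, which grows with degradation. It was 0.229 and 0.168 on the AZA arrays of AML-193 against 1.59 and 0.939 on its vehicle arrays. In HL60 it was 0.837 and 0.607 on the AZA arrays against 0.0361 and 0.0526 on the vehicle arrays, and on the arrays of HNT-34 and KG1a it lay between -0.111 and 0.122. PTPRC, the leukocyte surface phosphatase CD45, was bright in every group, with means from 10.96 to 13.20, and of 6 markers of plasmacytoid dendritic cells, which make type I interferon, IL3RA, TCF4 and PTCRA passed the filter while CLEC4C, LILRA4 and TCL1A did not.

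After AZA more of these genes rose than fell in HNT-34, KG1a and HL60, and more fell than rose in AML-193. In HNT-34, 22 of the 51 genes (43.1%) rose and 7 (13.7%) fell, where 15.4% of all genes tested rose and 14.8% fell. KG1a had 12 members higher (23.5%) and 3 lower (5.88%), against 6.56% and 3.37% of all genes. In HL60, 19 members (37.3%) rose and 7 (13.7%) fell, against 25.2% and 16% of all genes. In AML-193, 1 member (1.96%) rose and 15 (29.4%) fell, against 20.7% and 20.3% of all genes. Calls in either direction took in 41% of all genes in AML-193, 30.2% in HNT-34, 9.93% in KG1a and 41.3% in HL60. The test was the moderated test of limma with an adjusted p under 0.05 over all genes tested. In bulk RNA, fewer cells expressing a gene and less RNA per cell cannot be told apart.

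**Figure D1:**
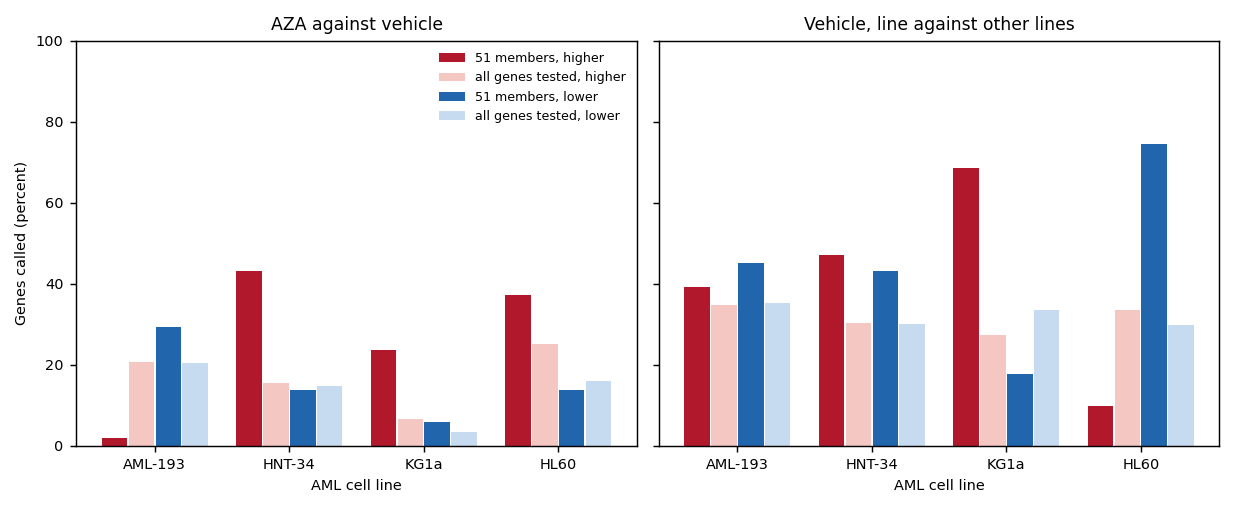
Percent of genes called at an adjusted p under 0.05, for the 51 interferon-stimulated genes (dark bars) and all 14038 genes tested (pale bars), higher in red and lower in blue. Left, AZA against vehicle in each AML cell line, where the dark red bar stands above the pale one in HNT-34, KG1a and HL60 and below it in AML-193. Right, the vehicle level of each line against the mean of the other lines, where members are mostly higher in KG1a and mostly lower in HL60.

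The medians of the members' changes were -0.16 in AML-193, 0.29 in HNT-34, 0.11 in KG1a and 0.17 in HL60, where the medians over all genes tested were 0.02, 0.01, 0.02 and 0.05. The low count of rises and the falls in AML-193 and the changes in HL60 stand beside the differences in the 3′ to 5′ measure given above. With that measure as a covariate, 1 member rose and 3 fell in AML-193 (IFI44L, IFITM1 and TRIM22), and 14 of the 15 falls kept their sign. With the same covariate 14 members rose in HL60, 13 of them also called without it, and 3 fell (TRIM22, PLSCR1 and ISG20). The HL60 rises of HERC6, IFIT2, IFIT3, PARP14, SAMD9 and TRIM5 and the HL60 falls of UBE2L6, IFIH1, SP110 and IFI16 were not called with it. The shares over all genes also shrank, to 1.54% higher and 1.12% lower in AML-193 and to 9.67% and 5.66% in HL60.

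Markers of T and NK cells were tested for 5 of 6 genes, of which 2 rose and 1 fell in AML-193, 3 rose and 2 fell in HNT-34, 3 rose in KG1a, and 3 rose and 1 fell in HL60. Their summed signal spanned 12.56 to 12.59 on the KG1a AZA arrays against 11.71 to 11.77 on the vehicle arrays, and 10.32 to 10.39 on the HNT-34 AZA arrays against 11 to 11.04 on the vehicle arrays. For the plasmacytoid list, of which 3 of 6 genes were tested, the sums were 10.66 to 10.68 on the AML-193 AZA arrays against 11.16 to 11.27 on the vehicle arrays, and 2 of its genes fell there. Of 8 tested myeloid markers 4 rose in AML-193, 1 rose and 3 fell in HNT-34, 3 rose in KG1a, and 6 rose and 1 fell in HL60. Their summed signal was 14.89 to 15.07 on the AML-193 AZA arrays against 13.90 to 13.99 on the vehicle arrays, where MPO, the granule peroxidase of myeloid precursors, averaged 13.67 after AZA against 10.56 with vehicle. Of 2 tested B cell markers 1 fell, in HNT-34, and of 3 for fibroblasts and epithelium 1 rose and 1 fell in AML-193, 1 fell in HNT-34, and 1 rose and 1 fell in HL60. The part of these markers in the results was not tested.

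**Figure D2:**
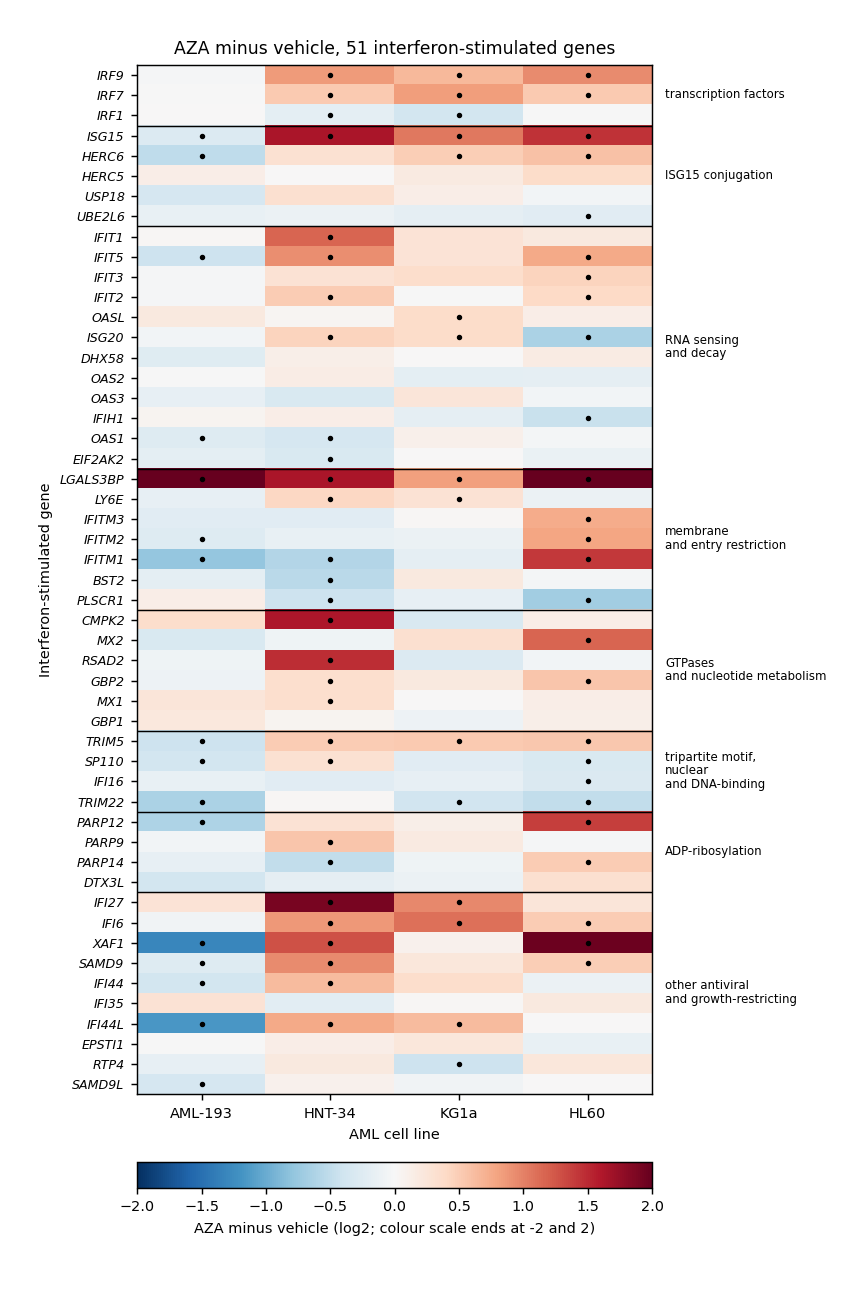
AZA minus vehicle (log2, colour, red higher and blue lower, scale ending at -2 and 2) for the 51 interferon-stimulated genes, grouped by role, in the AML cell lines. A dot marks an adjusted p under 0.05. LGALS3BP is the only row with a dotted red cell in every column. AML-193 has dotted blue cells where HNT-34 and HL60 have dotted red ones for ISG15, IFIT5, XAF1, TRIM5 and SAMD9. A second bright probe set of SAMD9 has the opposite sign in AML-193 and HL60. With the 3′ to 5′ measure as a covariate none of these AML-193 falls was called, nor were the HL60 rises of TRIM5 and SAMD9.

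Across the lines, LGALS3BP alone rose in all 4, as 0.712% of all genes did, and ISG15, IFI6, IRF7, IRF9 and TRIM5 rose in 3 (3.21% of all genes), each in all but AML-193. A further 10 members rose in 2 lines (10% of all genes), 15 in 1 (35.3%) and 20 in none (50.7%). TRIM22 was the only member that fell in 3 lines (1.88%), and 14 members rose in at least 1 line and fell in at least 1 other, which 20.2% of all genes did. Both figures are without the 3′ to 5′ covariate. Of the AML-193 falls among the 14, only those of IFI44L and IFITM1 were called with it. SAMD9 is counted although a second bright probe set has the opposite sign in AML-193 and HL60. OAS2, OAS3, HERC5, USP18, DHX58, EPSTI1, DTX3L, IFI35 and GBP1 were not called in any line, as was true of 29.3% of all genes.

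Among the transcription factors, IRF9, the DNA-binding part of ISGF3, was higher after AZA in 3 lines. It read 10.89 and 10.93 on the HNT-34 AZA arrays against 10.12 and 9.99 with vehicle, 11.43 and 11.47 against 10.77 and 10.84 in KG1a, and 9.39 and 9.33 against 8.41 and 8.42 in HL60. AZA arrays lay above vehicle arrays in each of these lines, by 0.85 (1.81-fold, adjusted p = 9.48e-07), 0.65 (1.56-fold, adjusted p = 4.76e-05) and 0.95 (1.93-fold, adjusted p = 5.74e-07), each ± 0.07 (SE). In AML-193 the arrays overlapped, with 9.69 and 9.63 after AZA and 9.74 and 9.63 with vehicle.

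IRF7, the factor that drives transcription of the interferon alpha genes, followed the same lines. It read 9.39 and 9.36 on the KG1a AZA arrays against 8.54 and 8.53 with vehicle, a rise of 0.84 ± 0.07 (1.79-fold, adjusted p = 6.27e-06). The rises in HNT-34, at 10.05 and 9.94 against 9.52 and 9.43, and in HL60, at 9.38 and 9.28 against 8.79 and 8.82, were 0.52 and 0.53. In AML-193 its arrays overlapped, at 9.68 and 9.56 after AZA and 9.66 and 9.61 with vehicle. IRF1, a factor of the interferon gamma response, did not rise in any line. It fell by 0.36 in KG1a, where it read 10.69 and 10.70 after AZA against 11.04 and 11.07 with vehicle (adjusted p = 0.0031), and by 0.19 in HNT-34, at 9.30 and 9.26 against 9.47 and 9.48 (adjusted p = 0.04), a call lost in most fits that left out 1 array. In AML-193 and HL60 its changes were 0.00 and -0.01.

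ISG15, the ubiquitin-like modifier of this response, changed in every line. HNT-34 gave 12.09 and 12.10 on AZA arrays against 10.45 and 10.47 on vehicle arrays, a rise of 1.63 ± 0.08 (3.10-fold, adjusted p = 5.89e-09). HL60 gave 12.23 and 11.99 against 10.68 and 10.63 (2.74-fold, adjusted p = 3.15e-08), and KG1a gave 11.79 and 11.75 against 10.70 and 10.72 (2.09-fold, adjusted p = 1.97e-06). AML-193 had the highest vehicle level, and there ISG15 was lower after AZA, at 11.12 and 11.13 against 11.46 and 11.36. That fall of 0.28 (adjusted p = 0.0118) was not called with the integrity covariate, where it was -0.06 (adjusted p = 0.889).

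Among the enzymes of ISG15 conjugation, HERC6 had the same calls as ISG15 in AML-193, KG1a and HL60. HERC6, a ligase that in mouse attaches ISG15, rose in KG1a (0.49, adjusted p = 0.045) and HL60 (0.59, adjusted p = 0.00461) and fell in AML-193 by 0.51 (adjusted p = 0.012). The KG1a call was lost in most fits with 1 array left out, and with the integrity covariate the change was 0.44 (adjusted p = 0.237) in HL60 and -0.27 (adjusted p = 0.726) in AML-193. HERC5, the main human ISG15 ligase, was not called in any line, with changes from 0.01 to 0.37, nor was USP18, the protease that removes ISG15, with changes from -0.34 to 0.32. UBE2L6, the conjugating enzyme, fell in HL60 by 0.23 (adjusted p = 0.0332), a call lost with the covariate.

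Of the 12 members that sense or degrade RNA, 4 rose and 2 fell in HNT-34, 2 rose in KG1a, 3 rose and 2 fell in HL60, and 2 fell in AML-193. The shares over all genes given above were 15.4% higher and 14.8% lower in HNT-34, 6.56% higher in KG1a, 25.2% higher and 16% lower in HL60, and 20.3% lower in AML-193, so the HL60 counts lay near the background. IFIT1, which binds RNA with incompletely methylated caps, read 8.50 and 8.48 on the HNT-34 AZA arrays against 7.28 and 7.38 on the vehicle arrays, a rise of 1.16 ± 0.12 (2.24-fold, adjusted p = 6.91e-06). Its changes in the other lines, from 0.02 to 0.28, did not pass the test. IFIT5, which binds triphosphate RNA ends, rose in HNT-34 (6.94 and 7.13 against 5.97 and 6.24, 1.91-fold) and HL60 (7.49 and 7.63 against 6.66 and 6.94, 1.69-fold). In AML-193 it fell by 0.42, at 8.46 and 8.08 after AZA against 8.61 and 8.77 with vehicle (adjusted p = 0.0306). That change was -0.49 with the integrity covariate and was not called (adjusted p = 0.495). A second bright probe set of IFIT5 changed by -0.17 in AML-193, 0.54 in HNT-34 and 0.29 in HL60.

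IFIT2 and IFIT3, partners of IFIT1, rose in HL60 by 0.40 and 0.45, but a second bright probe set of each moved the other way there, by -0.12 and -0.31. IFIT2 also rose in HNT-34 (0.50, adjusted p = 0.0034). ISG20, an RNA exonuclease, rose in HNT-34 (6.70 and 6.70 against 6.19 and 6.31, adjusted p = 0.00117) and KG1a (7.63 and 7.73 against 7.34 and 7.28, adjusted p = 0.0129). It fell in HL60 by 0.63, at 6.68 and 6.72 after AZA against 7.22 and 7.44 with vehicle (adjusted p = 7.03e-05), so its arrays did not overlap in any of the lines where it was called.

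The oligoadenylate synthetases, which make the activator of RNase L, held no called rise. OAS1 fell in HNT-34 by 0.34 (adjusted p = 0.0158) and in AML-193 by 0.26 (adjusted p = 0.0428, lost without any 1 of the AML-193 arrays), while OAS2 and OAS3 had changes between -0.31 and 0.24 that did not pass the test. OASL, a relative without synthetase activity, rose in KG1a by 0.37 (adjusted p = 0.0107). Among the sensors, IFIH1 (MDA5) fell in HL60 by 0.44, at 8.59 and 8.94 after AZA against 9.23 and 9.18 with vehicle, and EIF2AK2 (PKR) fell in HNT-34 by 0.30, at 10.22 and 10.30 against 10.50 and 10.61, where a second bright probe set of EIF2AK2 changed by -0.03. The IFIH1 fall was not called with the covariate. DHX58 (LGP2), which modulates IFIH1, had changes from -0.24 to 0.17 and was not called.

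LGALS3BP, a secreted glycoprotein that binds galectin, carried the largest rise of any member in AML-193 and in HL60. HL60 read 10.84 and 10.99 after AZA against 7.31 and 7.38 with vehicle, a rise of 3.57 ± 0.09 (11.9-fold, adjusted p = 1.67e-11). AML-193 read 8.08 and 7.98 against 5.97 and 6.10 (3.98-fold, adjusted p = 4.51e-09), and HNT-34 read 8.09 and 8.09 against 6.45 and 6.46 (3.11-fold, adjusted p = 1.22e-08). In KG1a it rose by 0.82, at 7.14 and 7.32 against 6.36 and 6.47 (1.76-fold, adjusted p = 3.63e-05). AZA and vehicle arrays did not overlap in any line, and the rise in AML-193 and HL60 was 1.74 and 3.73 with the integrity covariate.

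The IFITM proteins, which sit in membranes and block virus entry, rose in HL60 and not in the other lines. IFITM1 read 9.67 and 9.91 on the HL60 AZA arrays against 8.33 and 8.43 on the vehicle arrays, a rise of 1.41 ± 0.08 (2.66-fold, adjusted p = 6.01e-08). IFITM2, at 12.46 and 12.40 against 11.62 and 11.66, and IFITM3, at 12.09 and 11.98 against 11.23 and 11.36, rose there 1.73-fold and 1.67-fold. In AML-193 IFITM1 fell by 0.78, at 11.55 and 11.62 after AZA against 12.35 and 12.38 with vehicle (adjusted p = 1.64e-05), and in HNT-34 by 0.58, at 12.67 and 12.67 against 13.29 and 13.21 (adjusted p = 0.000125). KG1a read 13.30 and 13.31 against 13.44 and 13.53, a difference of -0.18 that did not pass. The IFITM probe sets carry the manufacturer's suffixes for probes that can bind related transcripts, so values of single IFITM genes are uncertain.

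BST2 (tetherin), which holds budding virions at the cell surface, fell in HNT-34 by 0.54, at 10.48 and 10.42 after AZA against 11.01 and 10.97 with vehicle (adjusted p = 0.000366). Its changes in the other lines, from -0.20 to 0.19, did not pass. PLSCR1, a phospholipid scramblase, fell in HL60 by 0.69, at 9.82 and 10.14 against 10.60 and 10.73 (adjusted p = 0.000125), and in HNT-34 by 0.41, at 12.25 and 12.20 against 12.64 and 12.62. LY6E, a lipid-anchored surface protein, rose in HNT-34 (0.41, adjusted p = 0.000786) and KG1a (0.29, adjusted p = 0.0209).

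Among the GTPases and nucleotide enzymes, the neighbouring genes CMPK2 and RSAD2 rose in HNT-34. CMPK2, a mitochondrial nucleotide kinase, read 11.80 and 11.86 on the HNT-34 AZA arrays against 10.31 and 10.10 on the vehicle arrays, a rise of 1.62 ± 0.26 (3.08-fold, adjusted p = 0.000343). RSAD2 (viperin), which makes a chain-terminating nucleotide, read 8.49 and 8.63 against 7.02 and 7.15, a rise of 1.48 ± 0.14 (2.78-fold, adjusted p = 4.29e-06). Neither was called elsewhere. KG1a, where both were brightest, read 12.96 and 12.84 after AZA against 13.08 and 13.32 with vehicle for CMPK2, and 11.86 and 11.78 against 12.12 and 12.07 for RSAD2. In HL60 CMPK2 read 7.91 and 8.04 against 7.69 and 8.0, and RSAD2 4.89 and 5.26 against 5.34 and 4.91. In AML-193 they lay near the low end of the array, at 5.81 and 4.64 against 4.89 and 4.87 for CMPK2 and 4.93 and 5.0 against 5.17 and 4.91 for RSAD2.

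MX2, a dynamin-like GTPase that blocks HIV nuclear import, rose in HL60, at 9.19 and 9.02 after AZA against 7.85 and 8.04 with vehicle (2.23-fold, adjusted p = 5.49e-05). Its neighbour MX1 was called in HNT-34 alone (0.34, adjusted p = 0.0323), and that call was lost without either HNT-34 AZA replicate 2 or vehicle replicate 1. GBP2, a guanylate-binding protein, rose in HL60 (0.55, adjusted p = 0.000198) and HNT-34 (0.34, adjusted p = 0.00735). GBP1 next to it had changes from -0.10 to 0.21 and was not called.

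TRIM5, which binds incoming retroviral capsids, and its neighbour TRIM22, a ubiquitin ligase that restricts viruses, went in opposite directions in KG1a and HL60. TRIM5 read 9.28 and 9.11 on the KG1a AZA arrays against 8.60 and 8.75 with vehicle, and TRIM22 read 11.09 and 10.98 against 11.43 and 11.43. In HL60 TRIM5 read 9.40 and 9.5 against 8.91 and 8.91, and TRIM22 9.47 and 9.68 against 10.06 and 10.07. The rises of TRIM5 were 0.52 and 0.54 (adjusted p = 0.0104 and 0.00207), and the falls of TRIM22 were -0.39 and -0.49 (adjusted p = 0.00555 and 0.000281). TRIM22 also fell in AML-193 by 0.63, at 9.31 and 9.24 against 9.88 and 9.91 (adjusted p = 5.35e-05), and its HNT-34 arrays overlapped, at 11.68 and 11.74 against 11.69 and 11.67. The KG1a calls were lost without KG1a AZA replicate 1 or vehicle replicate 1 for TRIM5 and without AZA replicate 2 for TRIM22. With the integrity covariate the TRIM5 rise in HL60 was 0.27 (adjusted p = 0.301) and the TRIM22 fall there was -0.41 (adjusted p = 0.0434).

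SP110, a nuclear body protein, rose in HNT-34 (0.31, adjusted p = 0.00311) and fell in AML-193 by 0.36 (adjusted p = 0.001) and in HL60 by 0.30 (adjusted p = 0.00295). Neither fall was called with the covariate. IFI16, a nuclear DNA sensor, fell in HL60 by 0.29 (adjusted p = 0.046), which most fits leaving out 1 array did not call.

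Among the ADP-ribosyltransferases, PARP12 rose in HL60, at 9.39 and 8.90 after AZA against 7.84 and 7.70 with vehicle (2.60-fold, adjusted p = 5.62e-06). It fell in AML-193 by 0.62, at 9.67 and 9.62 against 10.36 and 10.18 (adjusted p = 0.00245), which with the covariate was -0.04 (adjusted p = 0.955). PARP14 rose in HL60, at 9.23 and 9.10 against 8.66 and 8.65 (adjusted p = 0.00377, and 0.0922 with the covariate), and fell in HNT-34 by 0.50, at 9.52 and 9.45 against 9.86 and 10.11 (adjusted p = 0.00514), the fall being lost without HNT-34 vehicle replicate 2. Its neighbour PARP9 rose in HNT-34, at 9.00 and 9.03 against 8.56 and 8.35 (adjusted p = 0.000354), so the pair moved in opposite directions in that line, and a second bright probe set of PARP9 changed by 0.19 there. DTX3L, the ubiquitin ligase that partners PARP9, was not called, with changes from -0.37 to 0.32.

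IFI27, a small mitochondrial protein, was dim in all vehicle cultures, with means within 0.40 of each other that did not differ between lines (adjusted p = 0.0747). It read 8.02 and 7.80 on the HNT-34 AZA arrays against 5.96 and 6.06 with vehicle, a rise of 1.90 ± 0.13 (3.74-fold, adjusted p = 2.12e-07). In KG1a it read 7.26 and 6.95 against 6.18 and 6.10 (1.95-fold, adjusted p = 0.000425). IFI27 reached the array median, which the filter asked for, only on these AZA arrays of HNT-34 and KG1a. AML-193 (5.89 and 6.16 against 5.92 and 5.57) and HL60 (6.11 and 6.20 against 5.94 and 5.89) gave no call.

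IFI6, an inhibitor of cell death in the endoplasmic reticulum and mitochondria, rose in KG1a, at 10.96 and 10.80 after AZA against 9.65 and 9.91 with vehicle (2.14-fold, adjusted p = 5.68e-06). HNT-34, at 11.04 and 10.96 against 10.18 and 10.09 (1.82-fold), and HL60, at 9.55 and 9.47 against 8.96 and 9.06 (1.42-fold), also showed rises with no overlap. AML-193 read 8.78 and 8.85 against 8.90 and 8.87, a difference of -0.07 that did not pass.

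XAF1, an antagonist of the caspase inhibitor XIAP, had the widest spread of changes on the probe set used. It rose in HL60, at 7.92 and 7.57 after AZA against 5.93 and 5.65 with vehicle (3.89-fold, adjusted p = 6.29e-07), and in HNT-34, at 6.24 and 6.38 against 5.03 and 5.06 (2.41-fold, adjusted p = 2.29e-05). It fell in AML-193 by 1.30, at 8.25 and 8.25 against 9.70 and 9.41 (adjusted p = 2.77e-05), and in KG1a, at 8.33 and 8.03 against 8.23 and 7.97, it gave no call. With the integrity covariate the AML-193 change was -0.68 (adjusted p = 0.242) and the HL60 change 1.57 (adjusted p = 0.000458). A second probe set of XAF1, of nearly the same mean signal (7.29 against 7.37), had smaller changes of the same sign, at -0.72 in AML-193, 0.43 in HNT-34, 0.02 in KG1a and 0.22 in HL60, so the sizes above rest on the probe set chosen.

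The neighbours IFI44L and IFI44, a pair of cytoplasmic antiviral proteins, fell together in AML-193 and rose together in HNT-34. IFI44L read 7.66 and 7.76 on the AML-193 AZA arrays against 8.82 and 8.91 with vehicle (adjusted p = 2.04e-05), 6.63 and 6.80 against 5.91 and 6.02 in HNT-34 (adjusted p = 0.000515), and 6.94 and 6.96 against 6.28 and 6.33 in KG1a (adjusted p = 0.00498). IFI44 read 9.52 and 9.55 against 9.82 and 10 in AML-193 (adjusted p = 0.0253) and 10 and 10.13 against 9.55 and 9.31 in HNT-34 (adjusted p = 0.00126). With the integrity covariate the AML-193 fall was called for IFI44L (-1.32, adjusted p = 0.0373) and not for IFI44 (-0.59, adjusted p = 0.298). In HL60 both were near the low end of the array and their arrays overlapped, IFI44 at 5.12 and 4.76 against 5.05 and 5.04 and IFI44L at 5.24 and 5.30 against 5.51 and 5.01.

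SAMD9, a growth-restricting factor, rose in HNT-34, at 9.82 and 9.95 after AZA against 8.89 and 8.97 with vehicle (1.94-fold, adjusted p = 1.52e-06). Its second bright probe set had the opposite sign to the one used in AML-193 (0.42 against -0.26) and HL60 (-0.22 against 0.49), so no direction is given there. For its neighbour SAMD9L the AML-193 fall (-0.33) was likewise opposed by a second bright probe set (0.22). RTP4, a receptor chaperone, fell in KG1a by 0.42, at 7.42 and 7.56 against 7.91 and 7.91 (adjusted p = 0.0102), a call lost without KG1a AZA replicate 1 or vehicle replicate 1. EPSTI1 and IFI35 gave no call in any line, with changes from -0.15 to 0.23 and from -0.21 to 0.29.

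**Figure D3:**
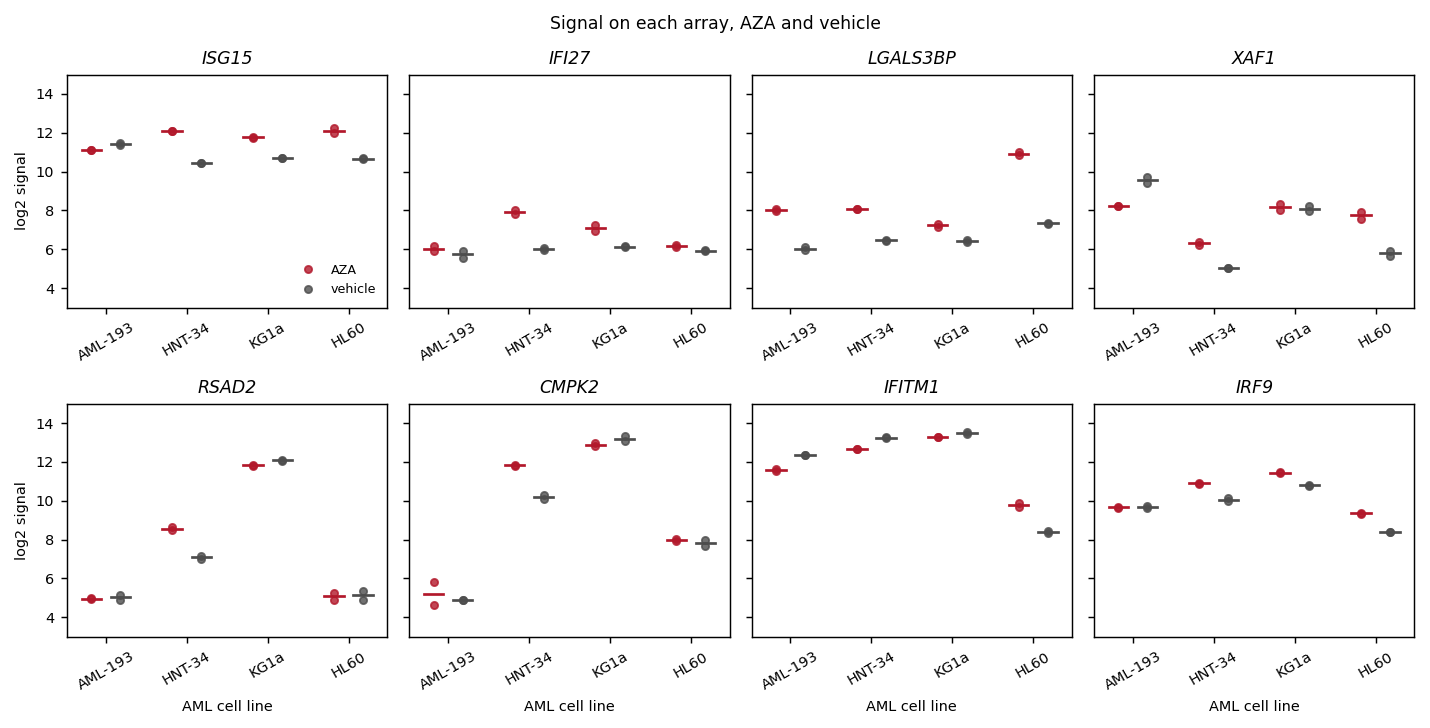
Signal (log2) of 8 interferon-stimulated genes on each of 16 arrays, by AML cell line, AZA in red left of vehicle in grey; points are arrays and bars the mean of 2. LGALS3BP lies higher after AZA in every line, XAF1 lies lower after AZA in AML-193 and higher in HNT-34 and HL60, and RSAD2 and CMPK2 separate the lines more than they separate the treatments.

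The change after AZA differed between the lines for 36 of the 51 members (70.6%) by a moderated F-test, against 57.1% of all genes tested. Fewer members differed with the integrity covariate, as given at the end. In each pair with AML-193, more members were called with the lower change in AML-193 than in the other line. Against HNT-34, 3 members changed more upward in AML-193 and 25 more upward in HNT-34, where the shares over all genes were 15.6% and 15.9%. Against KG1a the counts were 2 and 18 (11.2% and 13.2% of all genes), and against HL60 3 and 22 (20.1% and 27.2%). Between HNT-34 and KG1a, 13 members changed more upward in HNT-34 and 4 in KG1a (7.07% and 8.1%), between HNT-34 and HL60 the counts were 14 and 9 (15% and 20.8%), and between KG1a and HL60 they were 7 and 13 (11.5% and 15.4%).

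Several of these differences were large. The change of ISG15 in AML-193 was below that in HNT-34 by -1.92 ± 0.11 (SE, adjusted p = 7.59e-08), whereas in HNT-34 and HL60 it differed by 0.18 ± 0.11 (adjusted p = 0.234). For XAF1 the change in AML-193 minus that in HL60 was -3.26 ± 0.21 (adjusted p = 2.56e-07), while its second bright probe set changed by -0.72 and 0.22 in these lines. For IFITM1 the difference between these lines was -2.19 ± 0.12 (adjusted p = 4.87e-08). Integrity differed between treatments in AML-193 and HL60. With it as a covariate the changes in these lines were -0.68 and 1.57 for XAF1 and -0.99 and 1.54 for IFITM1. For ISG15 they were -0.06 in AML-193 and 1.65 in HNT-34. For LGALS3BP the changes in AML-193, HNT-34 and KG1a minus that in HL60 were -1.58, -1.93 and -2.76, each ± 0.12 (largest adjusted p = 1.16e-06). RSAD2 changed more in HNT-34 than in KG1a by 1.76 ± 0.20 (adjusted p = 5.5e-05) and than in HL60 by 1.53 ± 0.20 (adjusted p = 9.52e-05), and CMPK2 more than in KG1a by 1.92 ± 0.36 (adjusted p = 0.00282). The change of IFI27 in HNT-34 exceeded that in KG1a by 0.94 ± 0.19 (adjusted p = 0.00428).

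The lines also differed without drug. The vehicle level differed between lines for 49 of 51 members, where 85.1% of all genes did, and the exceptions were IFI27 and OASL. In KG1a, 35 members exceeded the average of the other lines and 9 were under it, against 27.2% and 33.6% of all genes. The 35 include EPSTI1, GBP1 and RTP4, which passed the filter on KG1a arrays alone. HL60 had 5 above and 38 below (33.6% and 29.7% of all genes), AML-193 had 20 and 23 (34.6% and 35.1%), and HNT-34 had 24 and 22 (30.3% and 30%). The vehicle level was highest in KG1a for 28 members and lowest in HL60 for 26, against 19% and 19.2% of all genes. The 3′ to 5′ measure was 1.59 and 0.939 on the AML-193 vehicle arrays and at most 0.122 on the other vehicle arrays. These levels are not adjusted for it. Line and RNA integrity therefore cannot be told apart for AML-193, whose levels also enter the averages set against the other lines. The median member level was 8.88 with AZA and 9.21 with vehicle in AML-193, 9.02 and 8.93 in HNT-34, 9.70 and 9.62 in KG1a, and 8.77 and 7.98 in HL60.

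The widest vehicle range belonged to CMPK2, whose KG1a level exceeded the mean of the other lines by 5.56 ± 0.21 (adjusted p = 5.67e-11) while that of AML-193 lay 5.54 below it, and whose line means spanned 8.32. RSAD2 spanned 7.05 and stood 6.35 ± 0.12 higher in KG1a than in the other lines (adjusted p = 6.44e-14). IFITM1 spanned 5.10, with HL60 below the other lines by -4.65 ± 0.07 (adjusted p = 1.37e-14). IFI44 was also low in HL60 alone, by -4.72 ± 0.10 (adjusted p = 2.37e-13).

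HERC5 and EPSTI1 likewise separated the lines, and neither was called after AZA in any line. HERC5 read 5.17 and 5.38 after AZA and 5.61 and 4.93 with vehicle in HNT-34, whereas its values were 10.32 and 10.37 against 10.11 and 10.32 in AML-193, 9.42 and 9.41 against 9.26 and 9.21 in KG1a, and 9.64 and 9.57 against 9.21 and 9.26 in HL60 (a difference of 0.37, adjusted p = 0.0785, with no overlap). EPSTI1 read 10.87 and 10.66 after AZA and 10.32 and 10.75 with vehicle in KG1a. In the other lines it lay between 5.55 and 6.11 after AZA and between 5.56 and 5.98 with vehicle. EPSTI1 thus passed the filter on dim signal through KG1a alone. All 51 members still differed between the lines after AZA, as did 82.6% of all genes.

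Whether members rose most where their vehicle level was lowest was described per gene, without a test. The change in the line with the lowest vehicle level was above that in the line with the highest for 33 of 51 members (64.7%), against 74.1% of all genes tested. The median difference of these changes was 0.23 for the members and 0.21 for all genes. The vehicle arrays enter the level and, with a minus sign, the change, so a relation of this sign is built into such a comparison. With the level from 1 vehicle array and the change against the other, the median difference was 0.15 (52.9% of members) or 0.28 (64.7%), against 0.14 (65%) or 0.16 (67%) for all genes. This exchange does not remove what both vehicle arrays of a line share, such as the higher 3′ to 5′ measure in AML-193. Without HL60 the median difference was 0.10 for members and 0.16 for all genes, and without AML-193 it was 0.17 and 0.08. Leaving out HNT-34 gave 0.23 and 0.20, and leaving out KG1a gave 0.21 and 0.21.

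**Figure D4:**
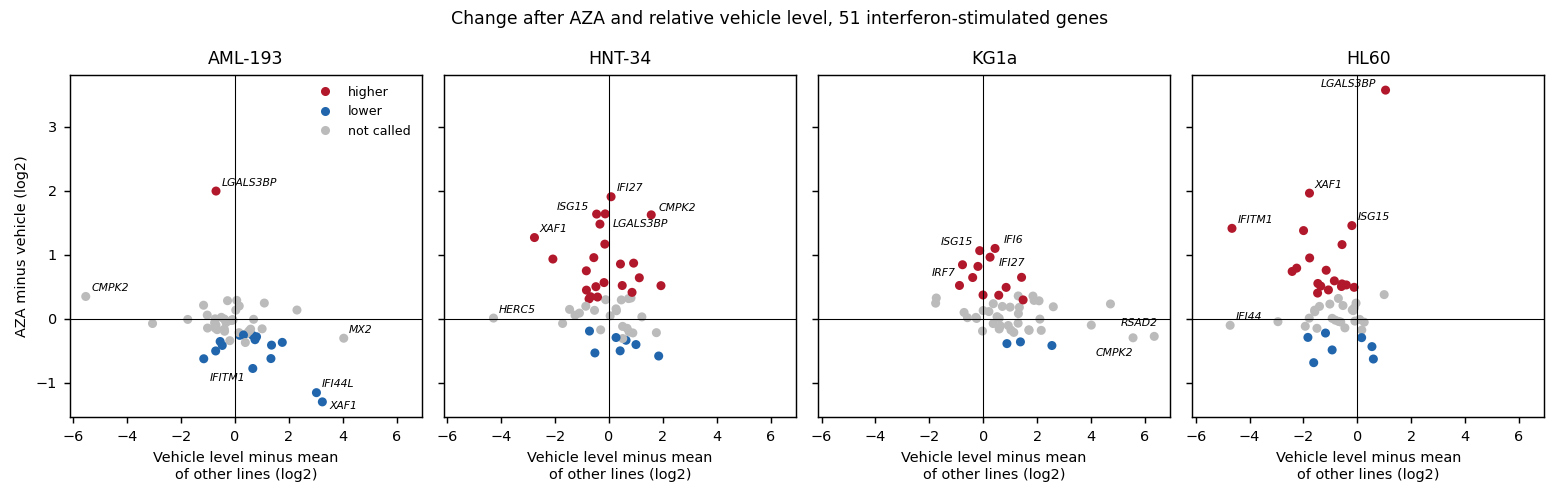
AZA minus vehicle (log2, vertical) against the vehicle level of the line minus the mean of the other lines (log2, horizontal) for 51 interferon-stimulated genes in each AML cell line; red is higher, blue lower and grey not called at an adjusted p under 0.05. XAF1 and IFI44L lie at the lower right in AML-193 and XAF1 at the upper left in HNT-34 and HL60, while RSAD2 and CMPK2, far to the right in KG1a, lie near 0.

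Across members, Spearman's rho between the change and the vehicle level relative to the other lines was -0.38 in AML-193, -0.19 in HNT-34, -0.40 in KG1a and -0.15 in HL60 (n = 51 genes each). Over all 14038 genes it was -0.46, -0.18, -0.22 and -0.29. These are descriptions across genes on the same arrays, and genes are not independent replicates. The same vehicle arrays enter both values here, and those of AML-193 carried the higher 3′ to 5′ measure. The range over the lines was narrower with AZA than with vehicle for 29 members (56.9%) and for 57.1% of all genes, and its median over members was 1.94 with AZA and 1.80 with vehicle.

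Single members went either way. The lines lay closer together for XAF1 (a range of 1.94 with AZA against 4.51 with vehicle), PARP12 (0.75 against 2.50) and IFITM1 (3.51 against 5.10), in each of which the line with the lowest vehicle level rose and AML-193 fell. With the integrity covariate the AML-193 change was -0.68 for XAF1 and -0.04 for PARP12, neither of them called, and -0.99 for IFITM1, which was called. A second bright probe set of XAF1 had smaller changes, of -0.72 in AML-193 and 0.43 in HNT-34. They lay farther apart for LGALS3BP (3.69 against 1.31), which had its highest vehicle level and its largest rise in HL60, and for IFI27 (1.89 against 0.40). For IRF7 the range was 0.66 with AZA against 1.10 with vehicle. Its highest line mean was 9.99 in HNT-34 with AZA against 9.63 in AML-193 with vehicle, and its lowest was 9.33 in HL60 with AZA against 8.53 in KG1a with vehicle.

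Members with the response element motif had medians of -0.16, 0.29, 0.19 and 0.23 in AML-193, HNT-34, KG1a and HL60 (n = 29), against -0.15, 0.09, -0.07 and 0.00 for members whose window lacked it (n = 11). In HNT-34, 14 of 29 members with the motif rose and 4 of 11 without it did, and the counts were 7 and 2 in KG1a and 11 and 3 in HL60. In AML-193, 8 of 29 with the motif fell and 5 of 11 without it, and with the integrity covariate 3 members fell there in all. Over all genes 15.4% rose in HNT-34, 6.56% in KG1a and 25.2% in HL60, and 20.3% fell in AML-193. Whether the motif bears on the change was not tested. The windows of the members held a median of 9 CpG dinucleotides, the sites at which DNA methyltransferases act, against 16 for all genes. Spearman's rho between the number of CpGs and the change was 0.22, 0.02, -0.27 and -0.09 in these lines (n = 40 genes), given as a description. ISG15, with 20 CpGs, and IFI44L, with none in its window, were both among the members called in AML-193, HNT-34 and KG1a.

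Members that lie next to each other were grouped where the gap between them was at most 200000 bases, which gave 11 groups with 27 members. Of the IFIT genes on chromosome 10, 3 of 4 rose in HNT-34 and 3 of 4 in HL60, and of the IFITM genes on chromosome 11 all 3 rose in HL60 while 2 fell in AML-193. Over all genes 15.4% rose in HNT-34, 25.2% rose in HL60 and 20.3% fell in AML-193. The HL60 rises of IFIT2 and IFIT3 were opposed by a second bright probe set and not called with the integrity covariate. Nor was the AML-193 fall of IFITM2 called with it. The OAS genes on chromosome 12 held no rise in any line. Neighbours with opposite calls in 1 line were TRIM5 and TRIM22 on chromosome 11 and PARP9 and PARP14 on chromosome 3.

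Transcripts of the interferons themselves were at the low end of the array. Of 21 ligand genes 18 had a probe set and 1, IFNA17, passed the filter. It rose in AML-193 (7.47 and 7.59 after AZA against 7.10 and 6.62 with vehicle, adjusted p = 0.00242) and was not called elsewhere. IFNB1, which was not tested, had means from 5.30 to 5.33 after AZA and from 5.23 to 5.55 with vehicle.

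Of 14 tested genes for receptors and signalling, 8 rose and 3 fell in AML-193, 4 rose and 3 fell in HNT-34, 3 rose in KG1a, and 6 rose and 2 fell in HL60. For this and the next lists the shares over all genes were 20.7% higher and 20.3% lower in AML-193, 15.4% and 14.8% in HNT-34, 6.56% and 3.37% in KG1a, and 25.2% and 16% in HL60, and counts close to these shares are no result about a list. IFNAR1, a receptor chain for type I interferon, rose in AML-193 (0.36), HNT-34 (0.39) and KG1a (0.52, adjusted p = 0.00268) and changed by 0.04 in HL60. IFNAR2 rose in AML-193 (0.29) and KG1a (0.25) and fell in HNT-34 by 0.31 (adjusted p = 0.00263). The kinase TYK2 fell in AML-193 by 0.62 (10.31 and 10.28 against 10.95 and 10.88) and rose in HL60 by 0.78 (10.81 and 10.50 against 9.93 and 9.82), and JAK1 rose by 0.28 in each of these lines. IFNGR1, a receptor chain for interferon gamma, fell in HNT-34 by 0.44 and rose in HL60 by 0.44, and IFNGR2 rose in AML-193 (0.44) and KG1a (0.27) and fell in HNT-34 by 0.32.

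Of 11 tested genes for nucleic acid sensing, 1 rose and 3 fell in AML-193, 2 rose and 1 fell in HNT-34, none was called in KG1a at this threshold by limma, and 6 rose in HL60. MYD88, the adaptor of Toll-like receptors, rose in AML-193 (0.73), HNT-34 (0.38) and HL60 (0.74). Of 11 tested negative regulators, 7 rose in HL60, 2 in KG1a, 1 in HNT-34 and 1 in AML-193, while 3 fell in HNT-34 and 4 in AML-193. SOCS1, an inhibitor of the receptor kinases, fell in AML-193 by 0.93 (8.11 and 8.18 against 9.12 and 9.02, adjusted p = 1.24e-06) and rose in KG1a (0.45) and HL60 (0.37). SOCS3 fell in HNT-34 by 0.81 (adjusted p = 0.0154) and rose in HL60 by 1.05 (adjusted p = 0.00243).

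Among 39 tested genes of a further list of interferon-induced genes, 6 rose and 12 fell in AML-193, 8 rose and 3 fell in HNT-34, 4 rose and 1 fell in KG1a, and 13 rose and 6 fell in HL60. Over all genes 20.7% rose and 20.3% fell in AML-193, and 15.4% and 14.8% in HNT-34. The shares were 6.56% and 3.37% in KG1a and 25.2% and 16% in HL60. Median changes of this list were -0.09, -0.05, -0.02 and 0.07 in AML-193, HNT-34, KG1a and HL60. Those of the 51 members were -0.16, 0.29, 0.11 and 0.17. TNFSF10 (TRAIL), a death ligand, rose in every line, by 1.05, 0.53, 0.49 and 0.75 in AML-193, HNT-34, KG1a and HL60. The chemokine CXCL10 rose in KG1a (8.71 and 8.57 against 7.32 and 7.58, adjusted p = 9.64e-06), and CCL5 rose in HL60 (11.77 and 11.75 against 10.24 and 10.42, adjusted p = 1.68e-07). LAP3, an aminopeptidase, rose in AML-193 by 1.34 (adjusted p = 5.21e-05) and fell in HL60 by 0.56 (adjusted p = 0.0148). Integrity differed between treatments in AML-193 and HL60 as given above, and its part in the counts of these other lists was not tested.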

How the data were processed

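Gene expression was measured on Affymetrix U133 Plus 2.0 arrays, 16 in all. Per the submitters' processing notes the authors used affy and RMA, which gave the deposited log2 signal of each probe set, and no version or genome build is given in the sources used here. The table held 54675 probe sets, of which 41097 had 1 symbol, 1801 several and 11777 none; 41043 were matched to a gene table of GRCh38.p14, which changed 0 symbols. The probe set with the highest mean stood for a gene, and genes that reached the array median (6.73) on 2 or more of the 16 arrays were tested. A gene could therefore pass through the group in which it was high, as IFI27 did through AZA arrays of HNT-34 and KG1a. Array values carry no counts, so the number of arrays limits the precision, and dim genes have compressed changes.

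One limma model (version 3.58.1, R 4.3.3) covered the 8 groups, with 8 residual and 4.8 prior degrees of freedom and Benjamini-Hochberg adjustment at 0.05 over all 14038 genes. Contrasts were AZA minus vehicle per line, the 6 differences between lines, and moderated F-tests of the changes, the vehicle levels and the AZA levels. On simulated data with 14038 genes, changes of log2 0.5 were recovered for 67.2% to 79.1% over the lines and of 1 or 2 for 100%, and 4.3% to 7.92% of calls were false. There, only a small share of genes changed, alike in every line, with independent noise and no difference of integrity between treatments. These shares therefore do not describe calls in AML-193 or HL60 that integrity may have moved. The replicate number follows the order of deposit and pairs no arrays.

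The members, the other lists, the markers and the tests were chosen with earlier results of these data known. Array values, at least in the line concerned, are given for the members with the 4 largest rises and 3 largest falls per line among calls without overlap, the 6 widest vehicle ranges, the 6 widest ranges of change, and IRF1, IRF7 and IRF9; neighbours and role partners of these were added after their values were seen. Other lists give up to 3 called genes per line, besides receptor genes and DNMT1. Alternatives were the mean of probe sets, no filter, other scaling, an intensity trend, each line alone, a 3′ to 5′ covariate, leaving out each array and, for the relation to the vehicle level, other vehicle arrays, lines or genes. Where an array was left out, the lone array of its group was assumed to vary like the other groups.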

Additional observations from a re-analysis of the deposited data

Results flagged for a closer look

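The change after AZA differed between the lines, by a moderated F-test of the difference itself, for 36 members, whose largest and smallest line changes lay the following distances apart on the log2 scale. Above 1.5 were XAF1 (3.26, with changes from -0.72 to 0.43 on its second bright probe set), LGALS3BP (2.76), IFITM1 (2.19), PARP12 (2.00), ISG15 (1.92), CMPK2 (1.92), IFI44L (1.90), RSAD2 (1.76) and IFI27 (1.66). Between 1 and 1.5 were MX2 (1.46), IFIT5 (1.35), SAMD9 (1.21), IFI6 (1.16), IFIT1 (1.14), HERC6 (1.10), ISG20 (1.08), IFITM2 (1.05), PARP14 (1.01) and IFI44 (1.01). The other members were IRF9 (0.97), TRIM5 (0.96), IFITM3 (0.96), IRF7 (0.85), PLSCR1 (0.82), BST2 (0.73), SP110 (0.67), USP18 (0.67), TRIM22 (0.66), GBP2 (0.65), RTP4 (0.65), PARP9 (0.61), IFIH1 (0.57), LY6E (0.57), IFIT2 (0.53), OAS1 (0.43) and IRF1 (0.36).

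The 15 members whose change was not called different were IFIT3, MX1, OAS2, OAS3, OASL, HERC5, DHX58, SAMD9L, EPSTI1, DTX3L, IFI16, IFI35, GBP1, EIF2AK2 and UBE2L6. USP18 was called different between lines although it was not called in any single line.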

How the results depend on the processing

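With the mean of probe sets 2 members rose in AML-193, and with the integrity covariate 3 fell in AML-193 and 3 in HL60. Leaving out 1 array gave 1 to 2 rises and 8 to 17 falls in AML-193, 21 to 23 and 4 to 8 in HNT-34, 8 to 12 and 2 to 4 in KG1a, and 17 to 20 and 5 to 7 in HL60. The AML-193 falls were 8 without its AZA replicate 2 and 9 without its vehicle replicate 1, and its rises were 2 without AZA replicate 2, vehicle replicate 1 or vehicle replicate 2. The HNT-34 falls were 4 without its AZA replicate 1. Between lines, 34 to 37 changes, 49 to 51 vehicle levels and 51 to 51 AZA levels differed with 1 array left out, and 27 changes differed with the integrity covariate. Of 86 called member changes, 58 kept sign and call in every fit leaving out 1 array and 51 in every setting run, and 3 changed sign. OAS1 and SAMD9 in AML-193 were 0.01 and 0.08 with the mean of probe sets, and TRIM5 in AML-193 was 0.01 with the covariate. Among genes with vehicle means at least 2 apart, an alternative chosen after seeing the data, the median difference between lowest and highest line was 0.38 for 24 members and 0.41 for all genes. The causes were not tested. No paired analysis was possible because the replicate numbers come from the order of deposit and not from the labels. Having 2 arrays per group, and dim signals, limit small changes.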
